A study of Canis lupus familiaris with 29 samples.

Results

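The carriers that move drugs, metabolites and lipids across the membranes of MDCKII cells, a dog kidney epithelial line widely used to measure drug permeability, were followed through 29 RNA sequencing libraries. The genes were chosen by name alone: SLC22A for organic ion carriers, SLCO for organic anion transporting polypeptides, SLC47A for cation extruders, and ABCA, ABCB, ABCC, ABCD and ABCG for ATP-driven transporters. This gave 68 genes of the 24223 in the deposited tables, with no name repeated. The study followed the line as it formed epithelium. Wild-type cells were collected as seeded (day 0, 4 libraries), as cysts in 3D on top of matrigel (24 h, day 3, day 5 and day 8 with 2 libraries each, day 14 with 1), and as 2D layers on transwell inserts (day 4 and day 11, 3 libraries each). DENND5A-KD and AVL9-KD cells, in which the labels give 1 gene as knocked down, were collected at day 0 and as 2D layers of day 4 (2 libraries each), and DENND5A-KD cells also at 2D day 7 (2 libraries). A control knockdown is not among the 13 groups, and the labels do not say whether the knockdown numbers are clones or silencing sequences. AVL9-KD samples carry the numbers 1 and 4. Whether replicates came from separate cultures is not stated, and the p-values below therefore rest on a spread among libraries that may be technical.

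ABC transporters use ATP to push substrates out of the cytoplasm or into an organelle, while SLC carriers move them along or against gradients of charge, protons, sodium or an exchanged solute. In the kidney tubule these work in series: carriers of the basolateral membrane take organic cations and anions up from blood, and exporters of the apical membrane release them into urine. Other members of the same families handle carnitine, urate, phospholipids, cholesterol, haem, peroxisomal fatty acids and cobalamin.

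Levels are FPKM, fragments per kilobase of transcript scaled to the mapped fragments of the library, so they may be set side by side between genes. Differences are of log2(FPKM + 1), ± SE, which understates the change of low genes. Tests are limma's, 2-sided, fitted over all 29 libraries and adjusted by Benjamini and Hochberg over 11774 genes, and a gene is called at an adjusted p under 0.05. Libraries held 10163 to 10903 genes at 1 FPKM or more, and relative depth ran from 0.438 to 1.68. An earlier look at these data had set 5 wild-type libraries apart (the day 14 library and the first replicates of day 0, of cysts at days 3 and 8, and of layers at day 4). Their relative depths were 0.438 to 0.702, those of the other 24 were 0.525 to 1.68, and counts without the 5 are given below. The epithelial label held, with kidney epithelial markers summing to 413 to 802 FPKM and every fibroblast, endothelial and leukocyte marker under 1 FPKM throughout. Of 6 hepatocyte markers, all but TF stayed under 1 FPKM. Of 8 proximal tubule markers, CUBN read 1.32 to 5.96 FPKM and SLC5A1 up to 5.43 FPKM, LRP2 and SLC7A9 were listed at 0 in every library, and SLC34A1, SLC3A1, SLC5A2 and SLC13A1 stayed under 1 FPKM. Of 14 distal markers, ATP6V1B1 led at 13 to 59.7 FPKM. SCNN1B reached 8.62, SCNN1A 6.59, AQP3 4.88 and AVPR2 1.2 FPKM, AQP2, CALB1, FXYD4 and KCNJ1 were listed at 0, and the other 5 stayed under 1 FPKM. The distal markers summed to 18.4 to 25.5 FPKM in wild type at day 0, 33.6 to 48.0 in cysts of days 3 to 8 and 47.2 to 67.0 in layers, and the proximal ones to 2.18 to 2.71, 2.28 to 4.74 and 4.01 to 6.67. Their part in the results below was not tested. In bulk RNA, fewer cells of a kind and less RNA per cell cannot be told apart.

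Of the 68 genes, 16 were listed at 0 in all libraries (23.5%, against 31.8% of all genes in the tables). Among them were ABCG2, the breast cancer resistance protein, and the organic anion carriers SLC22A6, SLC22A7 and SLC22A8. Both proton-coupled extruders, SLC47A1 and SLC47A2, and the cation carrier SLC22A3 were there too. The rest were SLC22A10, SLC22A14, SLCO1C1, ABCB5, ABCC9, ABCC12, ABCD2, ABCG5 and ABCG8. A value of exactly 0 in these files may also be a failed estimate. A further 10 never rose above 0.1 FPKM, among them ABCB11, the bile salt export pump (highest 0.0238), and the prostaglandin carrier SLCO2A1 (0.0408). The others at that level were ABCA4, ABCA9, ABCC6, ABCG4, SLC22A13, SLC22A31 and SLCO2B1. Another 8 peaked between 0.1 and 1 FPKM: ABCA7, ABCA12, ABCC8, ABCC11, ABCG1, SLC22A4, SLCO4C1 and SLCO6A1. Of these the sterol transporter ABCG1 reached 0.107 FPKM and the ergothioneine carrier SLC22A4 0.304 FPKM. The human drug carriers ABCC3, SLCO1B1 and SLCO1B3 matched no gene name here and could not be followed, and 5715 genes have no symbol. Between 23 and 30 of the 68 reached 1 FPKM in any 1 library, and 31 passed the filter of 1 FPKM in at least 2 libraries and were tested (45.6%, against 48.6% of all genes). Among the 31, ABCA8 reached 1 FPKM in 4 libraries, all AVL9-KD, ABCA13 in 5, all 2D knockdown layers, ABCA1 in 2 layers of 2D day 4 (1 wild-type and 1 AVL9-KD), and SLC22A16 in the day 14 library and 1 AVL9-KD layer. SLC22A2 reached 1 FPKM in no library of day 0 or 3D 24 h. A gene that entered the test through the group where it is high had to differ there. Calls of ABCA8, ABCA13 and ABCA1 in those groups are therefore part of the counts below but are given as values with no test. The same holds for SLC22A2 against day 0 or 3D 24 h. The remaining 3, SLC22A11, SLC22A17 and SLCO1A2, reached 1 FPKM in 1 library only and were not tested.

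**Figure D1:**
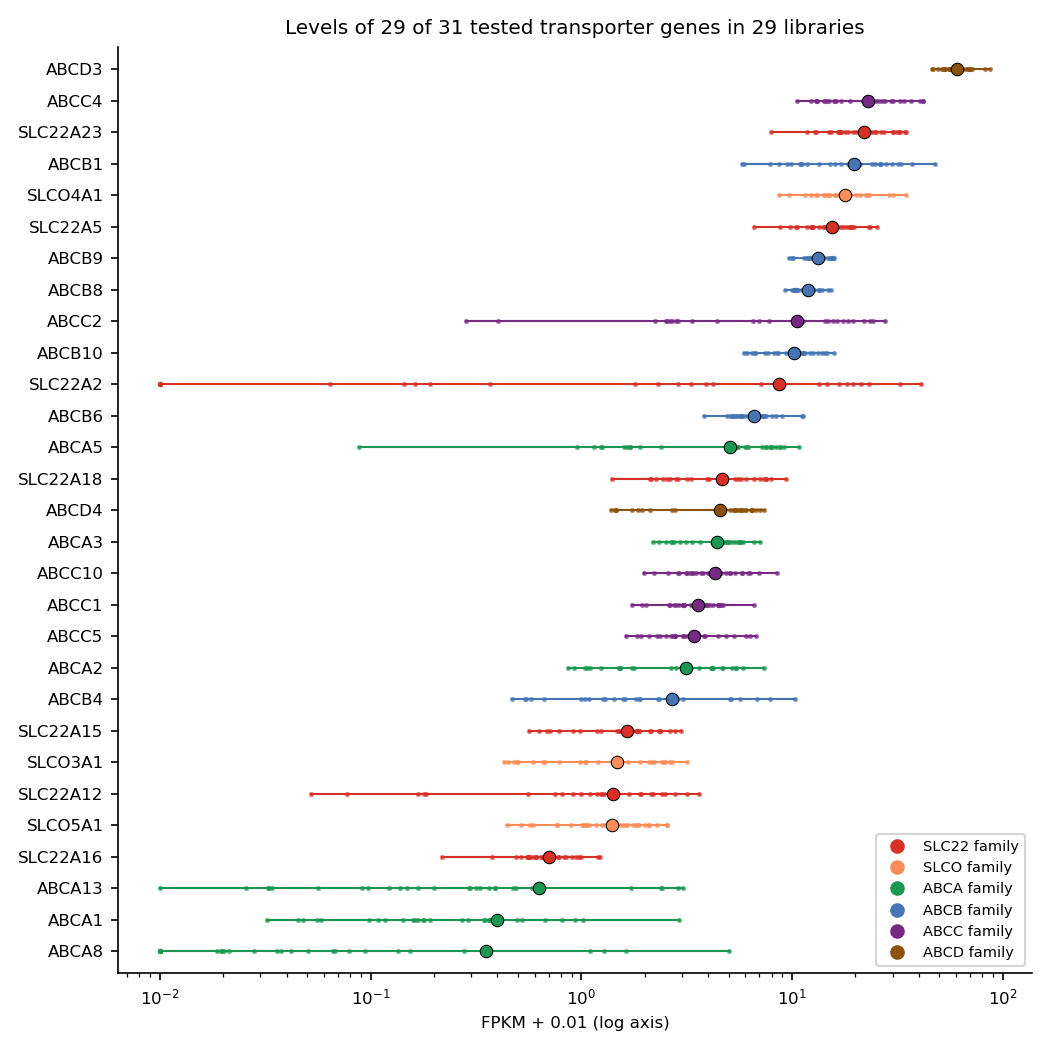
Each row is 1 of 29 of the 31 tested transporter genes, ordered by its mean over 29 libraries. Small points are libraries, large points the mean, lines run from the lowest to the highest library, and the x axis is FPKM + 0.01 on a log scale. ABCD3 leads at a mean of 60.6 FPKM with a narrow range, and SLC22A2 spans from 0 to 40.7 FPKM.

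By mean level the first was ABCD3, a fatty acid transporter of the peroxisome, at 60.6 FPKM. ABCC4, an exporter of cyclic nucleotides and organic anions, followed at 23.0 FPKM, then the orphan carrier SLC22A23 at 21.9 FPKM and ABCB1, the multidrug exporter P-glycoprotein, at 19.6 FPKM. SLCO4A1, which carries thyroid hormones and prostaglandins, averaged 17.9 FPKM, and SLC22A5, the sodium-coupled carnitine carrier, 15.4 FPKM. Next came ABCB9 at 13.2 FPKM, ABCB8 at 11.9 FPKM, ABCC2 at 10.5 FPKM, ABCB10 at 10.2 FPKM and SLC22A2 at 8.71 FPKM. The genes differed in how far they moved: the highest library of ABCD3 stood at 87.5 FPKM and the lowest at 46.0 FPKM, while SLC22A2 ran from 0 to 40.7 FPKM and ABCC2 from 0.273 to 27.7 FPKM. Summed over all 68 genes, libraries held 220 to 342 FPKM, lowest in 1 day 0 library and highest in the day 14 library.

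Cells growing into cysts or layers were compared with the cells as seeded. In both, the cation carrier SLC22A2, the conjugate exporter ABCC2, the carnitine carrier SLC22A5, the lysosomal ABCD4, the lipid transporters ABCA2 and ABCA5, and the orphan SLC22A18 rose. ABCC4 and SLCO4A1 fell in both. ABCB1 rose in 2D and fell at 3D day 3. At 3D day 3, 10 of the 31 tested genes were higher and 8 lower than at day 0, against 28.0% of all tested genes higher and 23.1% lower. At 3D day 5 the counts were 10 and 9, against 26.4% and 31.2%, and at 3D day 8 they were 10 and 11, against 24.7% and 38.0%. In 2D, 12 were higher and 4 lower at day 4, against 30.3% and 29.6% of all tested genes, and 11 were higher and 3 lower at day 11, against 32.2% and 23.7%. As shares of the 31, 32.3% were higher at each of the 3 cyst times, and 38.7% and 35.5% in layers. The share lower was 25.8% to 35.5% in cysts, near the background, and 12.9% and 9.68% in layers. The median difference of the 31 was 0.13, 0.14 and 0.03 in cysts, in order of time, and 0.17 and 0.09 in layers. Over all tested genes the medians were 0.05, -0.04, -0.13, 0 and 0.06. All 5 comparisons share the 4 day 0 libraries. Without the 5 set-apart libraries the calls were 9 higher and 5 lower at 3D day 3, 9 and 8 at day 5, 9 and 9 at day 8, and 9 and 4, then 9 and 3, at 2D days 4 and 11. Scaling mattered for the split. After median-ratio scaling 3D day 8 had 14 higher and 8 lower and 2D day 11 had 11 and 7, and after quantile normalization 2D day 4 had 9 and 7 and 2D day 11 had 8 and 8. Median-ratio scaling moved the median of all genes at 3D day 8 from -0.13 to 0.03.

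**Figure D2:**
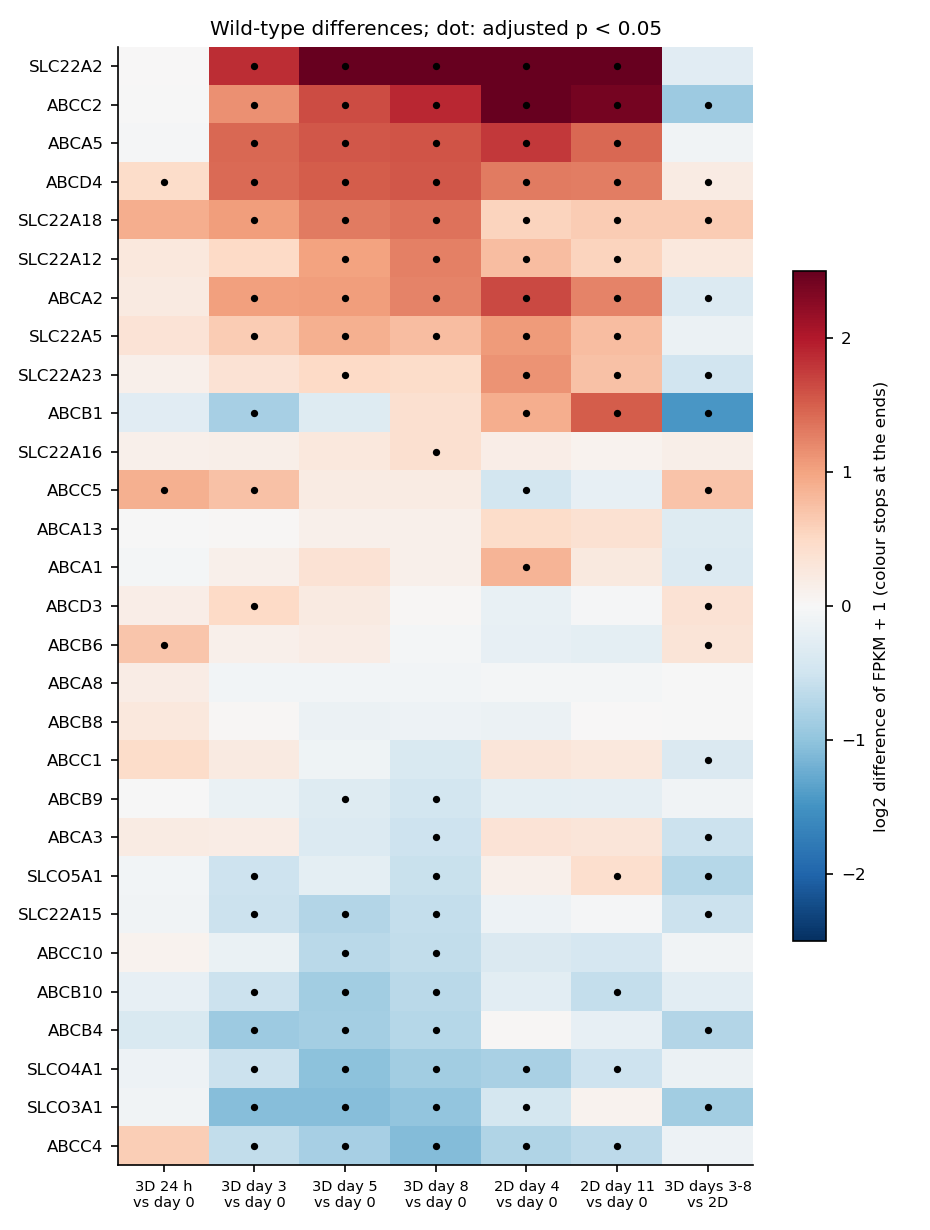
Rows are 29 of the 31 tested genes, ordered by their 3D day 8 difference, columns are 7 wild-type comparisons, and colour is the difference of log2(FPKM + 1), with the colour scale closed at both ends. A dot marks an adjusted p under 0.05, and SLC22A2, ABCC2, ABCA5 and ABCD4 head the genes that were higher at 3D day 8 and in 2D. SLC22A2 passed the expression filter only through groups where it is high, so its dots against day 0 are not read as tests.

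The apical drug exporter ABCB1 (ENSCAFG00000001835) followed different courses in 3D and 2D. At day 0 its 4 libraries read 11.8, 11.2, 10.9 and 11.1 FPKM, at 3D 24 h 9.41 and 8.71, and at 3D day 3 5.94 and 5.78. It then read 7.88 and 9.93 at 3D day 5, 17.1 and 13.5 at day 8, and 47.9 in the lone day 14 library. In 2D it read 26.2, 18.8 and 21.1 at day 4 and 32.9, 37.2 and 31.7 at day 11. Both day 3 cyst libraries thus lay below every day 0 library, and all 6 layers of 2D cells above. The fall at 3D day 3 was -0.84 ± 0.18 (limma adjusted p = 0.000862), and the rises were 0.90 ± 0.16 at 2D day 4 (7.9e-05) and 1.51 ± 0.16 at 2D day 11 (2.72e-07), where the mean was 3.02 times that of day 0. ABCB1 did not pass the test at 3D 24 h (-0.28 ± 0.18, adjusted p = 0.543), day 5 (-0.31 ± 0.18, 0.155) or day 8 (0.41 ± 0.18, 0.0618). The day 8 difference was called after quantile normalization (0.69, adjusted p = 0.00135) and median-ratio scaling (0.62, 0.00377), and without day 8 replicate 2 (0.57, 0.0495), and was 0.24 (0.407) without day 8 replicate 1. From 24 h to day 8 of 3D culture it rose by 0.69 ± 0.21 (adjusted p = 0.0101), a call lost without 24 h replicate 3 (0.64) or day 8 replicate 1 (0.53) and without the 5 set-apart libraries (0.53). In that comparison 7 of the 31 were higher and 12 lower, against 17.3% and 36.5% of all tested genes, with medians of -0.24 and -0.19. After median-ratio scaling, which moved the all-gene median to 0.02, it was 12 higher and 5 lower, and after quantile normalization 11 and 9.

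ABCC2 (ENSCAFG00000009536), the exporter of glutathione and glucuronide conjugates at the apical membrane, read 2.50, 2.81, 3.35 and 2.63 FPKM at day 0 and 2.67 and 2.87 at 3D 24 h. In cysts it read 6.99 and 7.78 at day 3, 10.3 and 11.3 at day 5, 15.7 and 11.0 at day 8 and 19.5 at day 14. Layers read 24.1, 23.4 and 16.4 at 2D day 4 and 18.4, 17.4 and 21.9 at 2D day 11. Every library from 3D day 3 on and every 2D library lay above day 0. Differences from day 0 were 1.14 ± 0.30, 1.63 ± 0.30 and 1.89 ± 0.30 at 3D days 3, 5 and 8 (limma adjusted p = 0.00341, 0.000104 and 1.56e-05), and 2.53 ± 0.26 and 2.40 ± 0.26 at 2D days 4 and 11 (9.05e-08 and 3.25e-07).

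ABCC4 (ENSCAFG00000005433) moved the other way. It read 18.8, 32.6, 26.3 and 24.6 FPKM at day 0 and 36.8 and 41.7 at 3D 24 h, the latter 0.62 ± 0.16 above day 0 without passing the test (limma adjusted p = 0.0564). It passed after quantile normalization (0.59, 0.0496) and median-ratio scaling (0.57, 0.0474), and without day 0 replicate 2 (0.74, 0.0136). Cysts then held 15 and 17.0 at day 3, 13.2 and 14.2 at day 5, 12.3 and 10.5 at day 8 and 13.1 at day 14, and layers 13, 16.1 and 14.3 at 2D day 4 and 14.7, 15.8 and 16.2 at day 11. All of these were below the lowest day 0 library. The falls were -0.62 ± 0.16, -0.83 ± 0.16 and -1.08 ± 0.16 at 3D days 3, 5 and 8 (adjusted p = 0.00254, 0.000144 and 6.42e-06) and -0.76 ± 0.14 and -0.66 ± 0.14 at 2D days 4 and 11 (8.27e-05 and 0.000455). In layers at day 4 and cysts at day 8 the mean levels of ABCC2, 21.3 and 13.4 FPKM, stood above those of ABCC4, 14.5 and 11.4 FPKM, the reverse of day 0, when ABCC2 averaged 2.83 FPKM and ABCC4 25.6 FPKM.

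Of the other conjugate exporters, ABCC5, which carries cyclic nucleotides and haem, rose early in cysts. It read 2.73, 3.47, 3.03 and 2.66 FPKM at day 0, 6.03 and 6.74 at 3D 24 h and 6.34 and 4.85 at day 3. By day 8 it read 3.59 and 3.55, and at 2D day 4 1.63, 2.09 and 1.90, below all day 0 libraries. The differences were 0.73 ± 0.13 at 3D day 3 (limma adjusted p = 0.000148), 0.21 ± 0.13 at day 8 (0.182) and -0.47 ± 0.12 at 2D day 4 (0.00178). The day 8 difference was called after median-ratio scaling (0.38, 0.00768). ABCC1, the basolateral exporter of glutathione conjugates, passed the test in no comparison with day 0, with differences of 0.46 ± 0.19 after 24 h in 3D (0.278), -0.38 ± 0.19 in cysts of day 8 (0.0873), 0.29 ± 0.17 in the 2D layers of day 4 (0.137) and 0.27 ± 0.17 in those of day 11 (0.175). At 3D day 8 it was called as lower without the 5 set-apart libraries (-0.74, adjusted p = 0.00705), without day 0 replicate 1 (-0.54, 0.00912) or day 8 replicate 1 (-0.58, 0.0468), and after quantile normalization (-0.45, 0.0167), and was -0.18 (0.556) without day 8 replicate 2. In 2D it was called as higher without day 0 replicate 2, at day 4 (0.44, 0.0248) and day 11 (0.41, 0.0347). ABCC10, a broad drug exporter, fell at 3D day 5 by 0.66 ± 0.22 (adjusted p = 0.0127) and at day 8 by 0.61 ± 0.22 (0.0193). Its calls were lost without day 5 replicate 2 (-0.42), and at day 8 without day 8 replicate 1 (-0.46), without day 0 replicate 1 (-0.48), without the 5 set-apart libraries (-0.33) or after median-ratio scaling (-0.44). ABCB4, which moves phosphatidylcholine to the outer leaflet, read 2.67, 1.60, 1.89 and 1.42 FPKM at day 0 and 0.462 to 0.991 FPKM in the 6 cyst libraries of days 3 to 8. It fell by 0.92 ± 0.22, 0.84 ± 0.22 and 0.71 ± 0.22 at those days (0.00177, 0.00276 and 0.00853), the last lost without day 8 replicate 2 (-0.52). In 2D its differences were 0.02 ± 0.19 at day 4 (0.931) and -0.21 ± 0.19 at day 11 (0.377), the latter called after quantile normalization (-0.45, 0.0428).

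**Figure D3:**
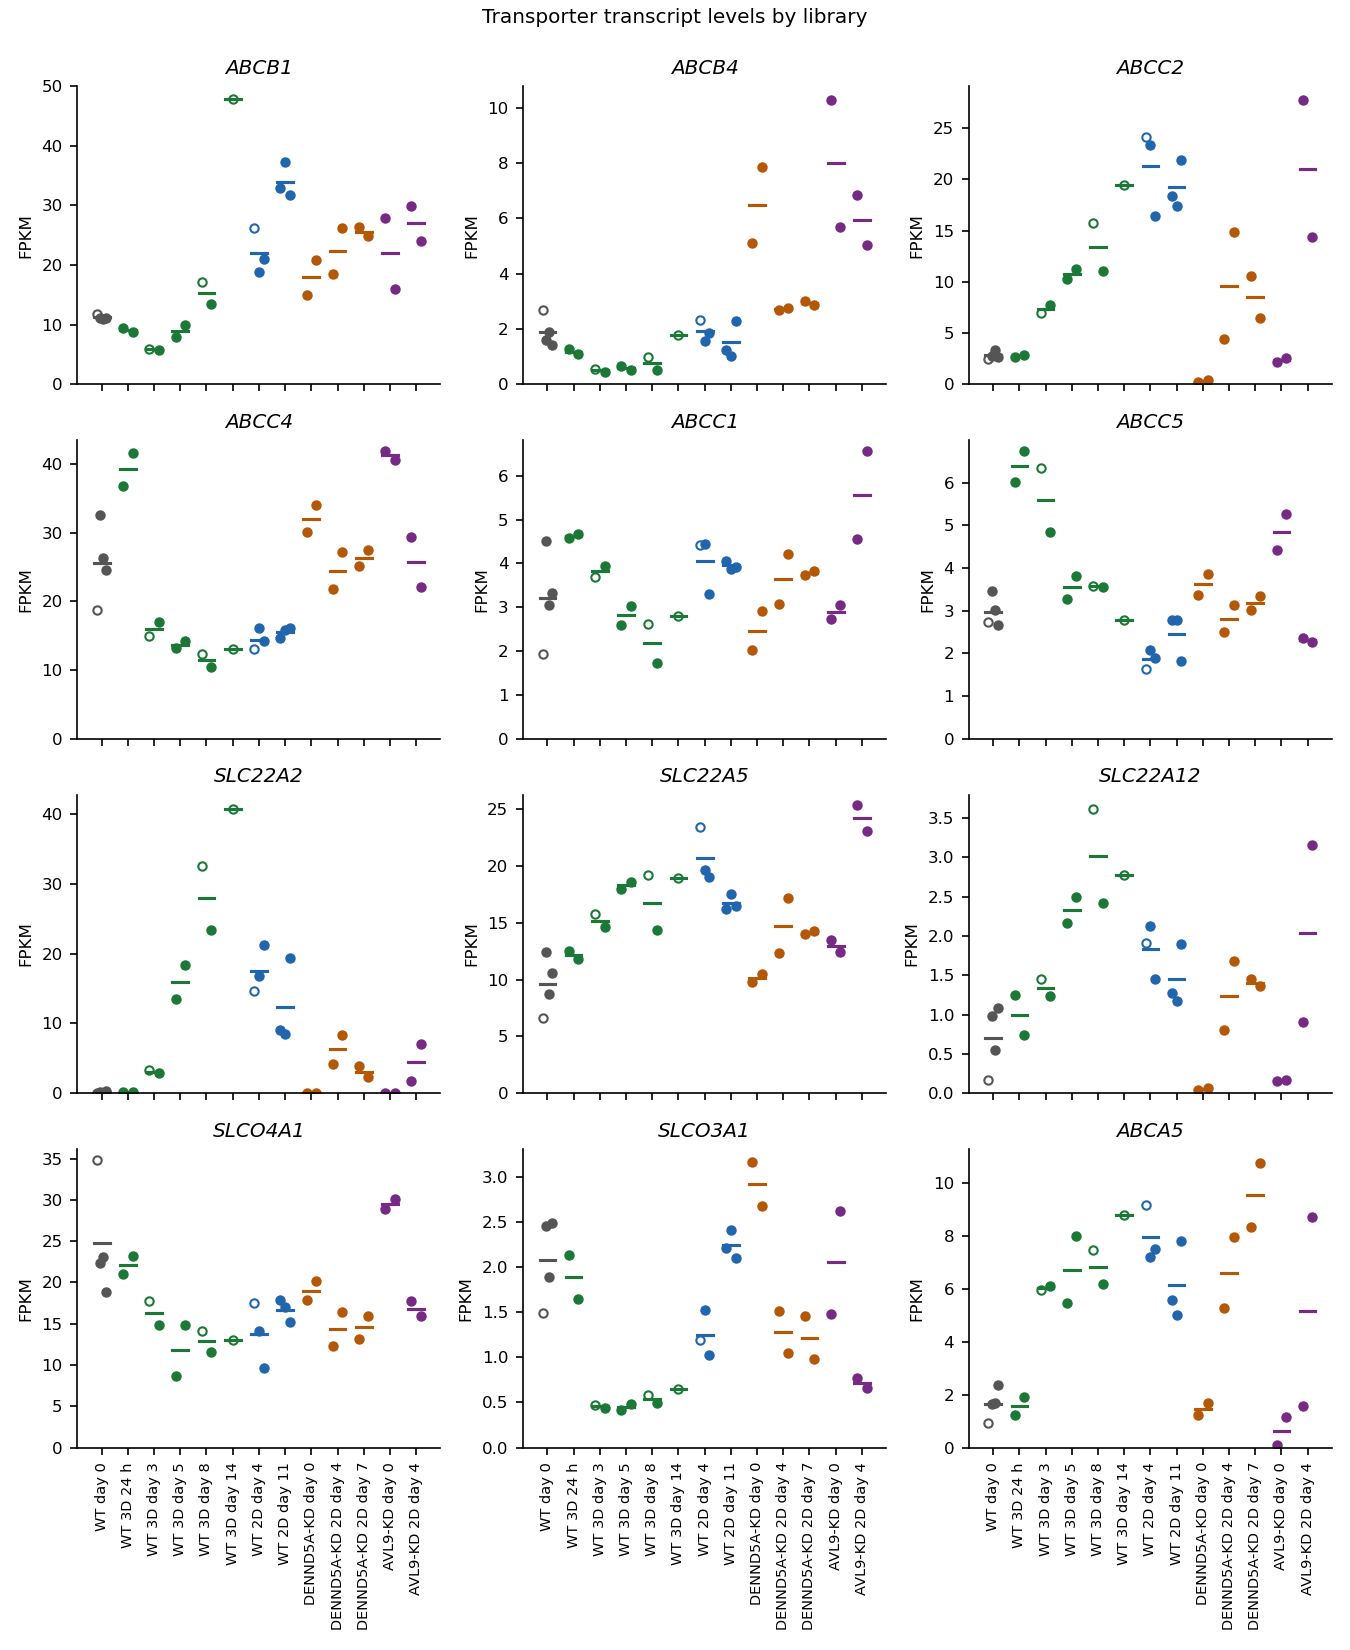
Each panel plots FPKM (y axis, from 0) of 1 transporter gene in 13 groups (x axis). Points are libraries, open points the 5 libraries set apart earlier, and bars group means, with grey for day 0, green for 3D, blue for 2D and orange and purple for DENND5A-KD and AVL9-KD. ABCC2 and SLC22A2 are higher in every cyst library from day 3 on and every wild-type 2D library than at day 0, and ABCC4 is lower in them.

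Among the uptake carriers, the basolateral cation carrier SLC22A2 (ENSCAFG00000000757), known for taking up metformin and creatinine in kidney, went from near 0 to the level of the main exporters. It was listed at 0 in 1 day 0 library and read 0.182, 0.0543 and 0.357 FPKM in the others, and 0.153 and 0.134 at 3D 24 h. In cysts it read 3.30 and 2.87 at day 3, 13.5 and 18.3 at day 5, 32.5 and 23.3 at day 8 and 40.7 at day 14. Layers read 14.7, 16.8 and 21.2 at 2D day 4 and 9.12, 8.45 and 19.4 at 2D day 11. From 24 h on, each 3D time lay above the one before with no overlap. The differences from day 0 were 1.84 ± 0.34, 3.87 ± 0.34 and 4.65 ± 0.34 at 3D days 3, 5 and 8, and 4.01 ± 0.30 and 3.45 ± 0.30 at 2D days 4 and 11. With a pseudocount of 0.1 in place of 1 they were 3.91, 6.23, 7.03, 6.37 and 5.77 in the same order. At 3D 24 h it was 0.00 ± 0.34, and from then to day 8 it rose by 4.64 ± 0.39. SLC22A2 passed the expression filter only through groups where it is high, so no test against day 0 or 24 h is given.

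SLC22A5 read 6.63, 12.4, 8.72 and 10.6 FPKM at day 0, 14.4 to 19.2 FPKM in cysts of days 3 to 8 and 16.2 to 23.4 FPKM in 2D layers, with no overlap with day 0. It rose by 0.64 ± 0.17, 0.90 ± 0.17 and 0.77 ± 0.17 at 3D days 3, 5 and 8 (limma adjusted p = 0.00303, 0.000118 and 0.000464) and by 1.06 ± 0.15 and 0.77 ± 0.15 at 2D days 4 and 11 (3.36e-06 and 0.000153). Without the 5 set-apart libraries the 3D day 8 value was 0.42 (0.0405). The urate exchanger SLC22A12 read 0.169 to 1.08 FPKM at day 0 and 2.17 to 3.62 FPKM at 3D days 5 and 8, higher by 1.01 ± 0.26 (0.00238) and 1.26 ± 0.26 (0.000272). In 2D layers it read 1.18 to 2.12 FPKM, higher by 0.77 ± 0.23 at day 4 (0.00651), a call lost after quantile normalization (0.49) and without the 5 set-apart libraries (0.57). Its neighbour on the chromosome, the organic anion carrier SLC22A11, was not tested, and read 0 in 3 of 4 day 0 libraries, 0.617 to 0.906 FPKM at 3D days 5 and 8 and 2.42 FPKM at day 14. SLC22A18, an orphan carrier, read 2.11, 2.64, 2.80 and 2.13 FPKM at day 0 and 4.76 and 6.07 at 3D 24 h, where it did not pass the test (0.91 ± 0.23, 0.055) but did after median-ratio scaling (0.86, 0.0295) and with a pseudocount of 0.1 (1.13, 0.049). It then rose by 1.05 ± 0.23, 1.31 ± 0.23 and 1.35 ± 0.23 at 3D days 3, 5 and 8 (0.000718, 6.07e-05 and 3.22e-05). In 2D it rose by 0.56 ± 0.20 at day 4 (0.0193) and 0.63 ± 0.20 at day 11 (0.0115), calls lost after quantile normalization (0.37 and 0.40), without 2D day 4 replicate 1 or 2 (0.47 each) and without 2D day 11 replicate 3 (0.45), and at day 4 also without the 5 set-apart libraries (0.43). The orphan SLC22A23 rose in 2D, from 11.7 to 17.2 FPKM at day 0 to 31.5 to 34.8 FPKM at day 4 (1.12 ± 0.18, 1.69e-05) and 23.2 to 27.4 FPKM at day 11 (0.73 ± 0.18, 0.00154). SLC22A15, which carries zwitterions, fell in cysts by 0.73 ± 0.15 at day 5 (0.000461) and 0.60 ± 0.15 at day 8 (0.00202), from 1.22 to 2.34 FPKM at day 0 to 0.62 to 0.901 FPKM. SLC22A16, a carnitine carrier of testis, read 0.365 to 0.597 FPKM at day 0 and 0.982 and 0.963 at 3D day 8 (0.39 ± 0.16, 0.034). That call was lost after quantile normalization (0.19), without day 8 replicate 1 (0.39) or 2 (0.40), without day 0 replicate 1 (0.35) or 3 (0.39), and without the 5 set-apart libraries (0.34).

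The 3 tested SLCO genes fell in cysts, although SLCO5A1 was not called at 3D day 5. SLCO4A1 read 34.8, 22.3, 23.0 and 18.8 FPKM at day 0, 8.70 to 17.7 FPKM in cysts of days 3 to 8 and 9.68 to 17.9 FPKM in layers. It fell by 1.02 ± 0.22 at 3D day 5 (limma adjusted p = 0.000582), 0.86 ± 0.22 at day 8 (0.00208) and 0.80 ± 0.20 at 2D day 4 (0.00144). The first was -0.67 (0.0459) without 3D day 5 replicate 2, and the second -0.53 (0.0157) after quantile normalization. Its falls at 3D day 3 (-0.55 ± 0.22, 0.046) and 2D day 11 (-0.51 ± 0.20, 0.0328) were smaller. They were not called without day 0 replicate 1, its highest library (-0.37 and -0.34), or without the 5 set-apart libraries (-0.50 and -0.34), and neither was the first without day 0 replicate 2 (-0.58) or 3 (-0.57) or day 3 replicate 1 (-0.67) or 2 (-0.42), nor the second without 2D day 11 replicate 2 (-0.52) or 3 (-0.44). SLCO3A1, a carrier of prostaglandins, read 1.49, 2.45, 1.89 and 2.49 FPKM at day 0 and 0.421 to 0.582 FPKM in the cysts of days 3 to 8. It fell by 1.07 ± 0.16, 1.07 ± 0.16 and 0.99 ± 0.16 at those days (2.15e-05, 1.29e-05 and 2.4e-05), and in 2D it read 1.03 to 1.52 FPKM at day 4 and 2.1 to 2.42 FPKM at day 11, the latter 0.09 ± 0.14 from day 0 (0.631). SLCO5A1, an orphan, read 1.01 to 1.62 FPKM at day 0 and 0.507 and 0.582 at 3D day 8, lower by 0.55 ± 0.18 (0.0139), a call lost without day 8 replicate 1 (-0.51) and without the 5 set-apart libraries (-0.53). At 3D day 3 it was called as lower (-0.51). That call was lost without the 5 set-apart libraries (-0.38), without 3D day 3 replicate 1 (-0.36) or without day 0 replicate 4 (-0.44). In 2D it went the other way, called as higher at day 11 (0.43), a call lost in 7 of 15 alternatives. Among these were quantile normalization (0.15), a term for the 5 set-apart libraries (0.37) and leaving those libraries out (0.40). Leaving out 2D day 11 replicate 1 (0.37) or 2 (0.43), or day 0 replicate 1 (0.40) or 3 (0.37), lost it too.

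Among lipid transporters, ABCA5, found in lysosomes, read 0.941, 1.63, 1.69 and 2.37 FPKM at day 0, 5.45 to 8.00 FPKM in cysts of days 3 to 8 and 5.03 to 9.15 FPKM in layers. ABCA2, of the same compartment, read 0.911, 1.52, 1.23 and 1.49 FPKM at day 0, 3.18 to 5.21 FPKM in cysts and 4.18 to 7.36 FPKM in layers. Neither overlapped with day 0. At 3D day 8 ABCA5 was higher by 1.58 ± 0.36 (limma adjusted p = 0.000748) and ABCA2 by 1.23 ± 0.18 (5.25e-06), and at 2D day 4 by 1.77 ± 0.32 (7.05e-05) and 1.65 ± 0.16 (2.59e-08). ABCA1, the cholesterol exporter, stayed under 0.11 FPKM at day 0 and read 0.796, 1.01 and 0.924 at 2D day 4, all above day 0. ABCA3, which loads surfactant phospholipids into lamellar bodies in lung, read 3.15 to 5.03 FPKM at day 0 and 2.75 and 2.34 at 3D day 8 (-0.51 ± 0.19, 0.0231), a call lost without day 8 replicate 2 (-0.43), day 0 replicate 2 (-0.43) or day 0 replicate 4 (-0.46), and after median-ratio scaling.

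Organelle transporters did not move as 1 group. ABCD4, which exports cobalamin from lysosomes, read 1.44, 2.1, 1.45 and 1.86 FPKM at day 0, 6.03 to 7.38 FPKM in cysts of days 3 to 8 and 5.25 to 6.01 FPKM in layers, with no overlap. It rose by 1.42 ± 0.10, 1.52 ± 0.10 and 1.55 ± 0.10 in 3D (limma adjusted p = 9.24e-09, 1.34e-09 and 4.9e-10) and by 1.31 ± 0.09 and 1.28 ± 0.09 in 2D (6.7e-10 and 2.45e-09). ABCD3 was called at 3D day 3 (0.50 ± 0.11, 0.000812), at 82.8 and 87.5 FPKM against 55.7 to 67.0 at day 0; whether day 3 differed from later days was not tested. The mitochondrial ABCB10 read 14.6, 11.5, 11.2 and 11.1 FPKM at day 0 and 5.91 and 6.47 at 3D day 5, lower by 0.86 ± 0.18 (0.000435). The lysosomal peptide transporter ABCB9 fell by 0.46 ± 0.13 at 3D day 8 (0.0045), to a mean of 10.6 FPKM from 15, a call lost after quantile normalization (-0.17) and without day 8 replicate 2 (-0.34).

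The first day in 3D changed 3 of the 31 tested genes, all upward, against 0.629% of all tested genes higher and 0.561% lower. They were ABCC5 (0.90 ± 0.13, limma adjusted p = 0.00112), the porphyrin transporter ABCB6 (0.68 ± 0.13, 0.0122) and ABCD4 (0.47 ± 0.10, 0.0288). ABCB6 read 11.1 and 11.3 FPKM against 5.71, 8.04, 6.80 and 6.02 at day 0, and ABCD4 2.68 and 2.77 FPKM, and neither overlapped with day 0. The median was 0.12 for the 31 and 0.06 for all tested genes. Without 24 h replicate 2 there was 1 call (ABCB6 0.70 and ABCD4 0.48 were lost), and without replicate 3 there were 0, with ABCC5 at 0.83, ABCB6 at 0.67 and ABCD4 at 0.45. ABCD4 was also lost without day 0 replicate 1 or 3 or the 5 set-apart libraries, at 0.42 each. Fitted on these 2 groups alone, limma called 0.

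Between 2D day 11 and 2D day 4, limma called 0 of the 31 genes, against 1.90% of all tested genes higher and 0.178% lower, and 4 had an unadjusted p under 0.05. ABCB1 was 0.61 ± 0.17 higher at day 11 (limma adjusted p = 0.0728), with its 3 day 11 libraries above the 3 of day 4. SLCO3A1 was 0.53 ± 0.15 higher (0.0734), also without overlap. With a term for the 5 set-apart libraries ABCB1 was called (0.68, 0.0355).

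Cysts and layers of wild-type cells were then compared directly, days 3, 5 and 8 of 3D (6 libraries) against days 4 and 11 of 2D (6 libraries). The exporters ABCB1 and ABCC2, the floppase ABCB4 and the carriers SLCO3A1, SLCO5A1, SLC22A15 and SLC22A23 were lower in cysts, and ABCC5, SLC22A18, ABCD3, ABCB6 and ABCD4 were higher. In all, 6 of the 31 were higher and 12 lower (19.4% and 38.7%), against 22.1% and 34.8% of all tested genes, which is near the background. The median was -0.16 for the 31 and -0.08 over all genes. The time points of the arms differ, and without the 5 set-apart libraries the counts were 5 and 11.

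ABCB1 in cysts had a lowest, median and highest value of 5.78, 8.90 and 17.1 FPKM, and in layers 18.8, 29 and 37.2 FPKM. The arms did not overlap, and the difference of -1.45 ± 0.12 (limma adjusted p = 1.42e-08) was the furthest from 0 of the 31. The lone day 14 cyst library, which entered no test, read 47.9 FPKM, above all layers. ABCC2 had 6.99, 10.7 and 15.7 FPKM in cysts and 16.4, 20.1 and 24.1 in layers, without overlap (-0.91 ± 0.20, 0.000598). ABCB4 had 0.462, 0.552 and 0.991 FPKM in cysts and 1.03, 1.72 and 2.33 in layers (-0.73 ± 0.15, 0.000295), and SLCO3A1 0.421, 0.477 and 0.582 against 1.03, 1.81 and 2.42 (-0.86 ± 0.11, 1.66e-06). Neither overlapped. SLCO5A1 differed by -0.71 ± 0.12 (6.8e-05), SLC22A15 by -0.55 ± 0.10 (0.000148) and SLC22A23 by -0.48 ± 0.13 (0.0042).

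Higher in cysts, ABCC5 had 3.28, 3.71 and 6.34 FPKM against 1.63, 2.00 and 2.78 in layers (0.71 ± 0.09, limma adjusted p = 1.51e-06), without overlap. SLC22A18 (0.64 ± 0.15, 0.00121), ABCD3 (0.36 ± 0.07, 0.000325) and ABCB6 (0.31 ± 0.09, 0.00482) overlapped between the arms. SLC22A2 had 2.87, 15.9 and 32.5 FPKM in cysts and 8.45, 15.7 and 21.2 in layers, and its difference of -0.28 ± 0.22 did not pass the test (0.304). SLC22A5 (-0.15 ± 0.11, 0.259), ABCC4 (-0.13 ± 0.10, 0.282) and ABCA5 (-0.08 ± 0.24, 0.788) did not pass it either, which does not show that cysts and layers were alike. ABCC1 (-0.37 ± 0.13, 0.0178) lost its call without 3D day 8 replicate 2 (-0.30), and ABCD4 (0.20 ± 0.07, 0.017) without day 8 replicate 1 (0.17) or the 5 set-apart libraries (0.18). After quantile normalization ABCD4 was at 0.37 and ABCB6 at 0.48.

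**Figure D4:**
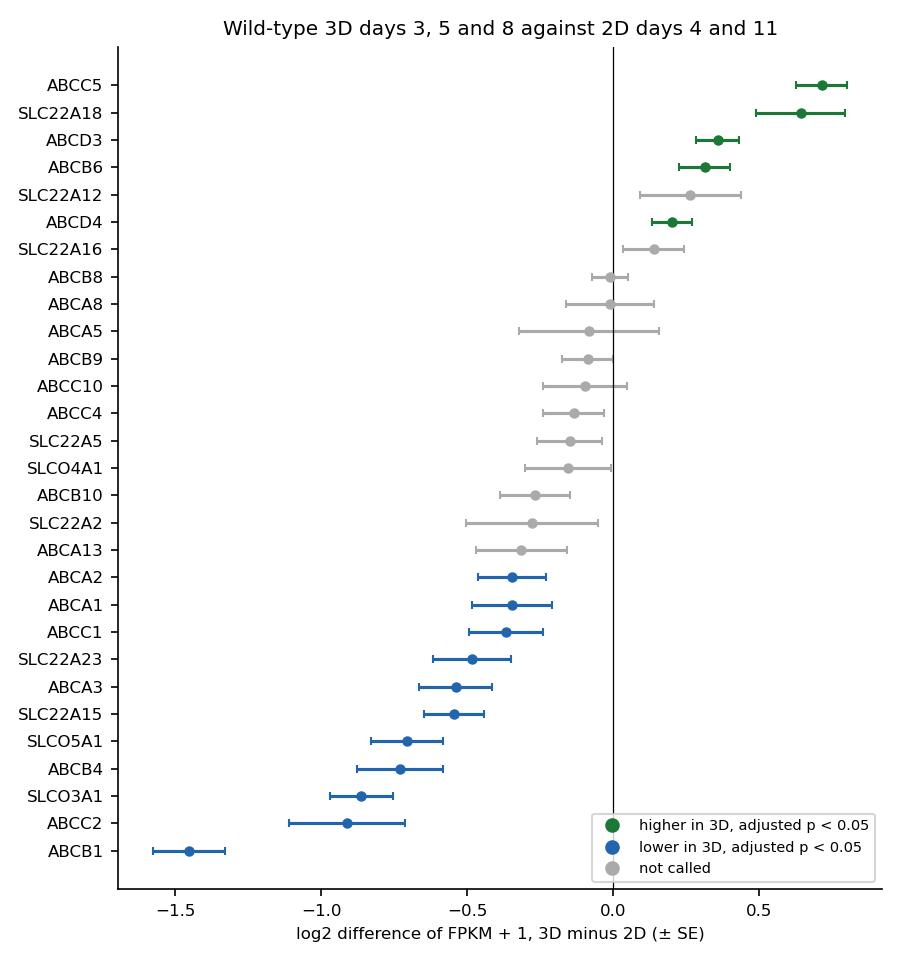
Points are the differences of log2(FPKM + 1) between 6 cyst and 6 layer libraries of wild-type cells (x axis, 3D minus 2D) for 29 of the 31 tested genes, with bars of 1 SE. Green and blue mark an adjusted p under 0.05, grey the rest, and ABCB1 lies furthest to the left at -1.45.

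The knockdown labels were checked first. DENND5A read 5.01, 6.89, 4.98 and 5.59 FPKM in wild type at day 0 against 2.02 and 1.88 in DENND5A-KD, and 10.9, 10.8 and 10.2 against 3.36 and 4.29 at 2D day 4. AVL9 read 23.7, 23.6, 22.2 and 22.6 FPKM in wild type at day 0 against 7.21 and 5.70 in AVL9-KD, and 22.1, 25.1 and 17.9 against 6.35 and 3.89 at 2D day 4. For the targeted gene, knockdown and wild-type libraries of the same day did not overlap. In AVL9-KD at day 0 DENND5A was also higher than in wild type, at 8.88 and 7.97 FPKM.

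Against wild type at the same day, both knockdowns had more ABCB4 at day 0, more ABCC4 and less SLC22A2 at 2D day 4, and DENND5A-KD had less ABCC2 on both days. Of the 31 genes, DENND5A-KD had 1 higher and 1 lower at day 0, against 3.27% and 2.25% of all tested genes, and 2 higher and 3 lower at 2D day 4, against 5.54% and 5.79%. AVL9-KD had 6 higher and 1 lower at day 0, against 13.4% and 4.59%, and 5 higher and 1 lower at 2D day 4, against 18.7% and 2.34%. ABCA8 is among the higher genes of both AVL9-KD comparisons, and ABCA13 among those of DENND5A-KD at 2D day 4. As shares of the 31 that is 3.23% and 3.23%, then 6.45% and 9.68%, then 19.4% and 3.23%, then 16.1% and 3.23%, where 3.23% is a single gene. In the same order, medians of the 31 were 0.07, 0.01, 0.04 and 0.21, and of all genes -0.01, -0.03, 0.11 and 0.19. Median-ratio scaling gave 6 higher and 4 lower for AVL9-KD at day 0 and 3 and 3 at 2D day 4, and moved its all-gene medians to -0.0029 and -0.01. Fitted on the groups of each contrast alone, the calls were 3 for DENND5A-KD at day 0, 0 at 2D day 4, 1 for AVL9-KD at day 0 and 0 at 2D day 4. Both knockdowns share the wild-type libraries of each day.

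SLC22A2 was listed at 0 in all 4 knockdown libraries of day 0, when wild type read 0 to 0.357 FPKM, so no fold is given. At 2D day 4 it read 4.23 and 8.29 FPKM in DENND5A-KD and 1.79 and 7.08 in AVL9-KD, all below the 14.7, 16.8 and 21.2 of wild type. The differences were -1.40 ± 0.36 (limma adjusted p = 0.0131) and -1.95 ± 0.36 (0.000848), and the first was lost without DENND5A-KD replicate 1 (-0.98) and with a pseudocount of 0.1 (-1.53). The second was -1.18 (0.0423) without AVL9-KD replicate 1, the library at 1.79, and -2.72 without replicate 4. At 2D day 7 DENND5A-KD read 3.89 and 2.30 FPKM, -0.80 ± 0.39 from day 4 (0.804). The interaction of knockdown and day was -1.21 ± 0.49 for DENND5A-KD (limma adjusted p = 0.268) and -1.76 ± 0.49 for AVL9-KD (0.0931). Neither passed. With wild type at 0 to 0.357 FPKM at day 0, hardly any fall could show there. The interaction of SLC22A2 therefore cannot say whether the knockdown effect differed between days. The AVL9-KD interaction passed with a replicate block that takes the line number in knockdowns and the replicate number in wild type (-1.78, adjusted p = 0.0403), and without AVL9-KD replicate 4 of 2D day 4 (-2.53, 0.00507). It was -0.99 (0.329) without replicate 1 of that day.

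ABCC2 read 0.273 and 0.391 FPKM in DENND5A-KD at day 0 against 2.50 to 3.35 in wild type, a difference of -1.52 ± 0.30 (limma adjusted p = 0.00298) that was lost without DENND5A-KD replicate 1 (-1.45), which left 1 call of 2 in that comparison. The ABCC2 difference was -2.76 with a pseudocount of 0.1. At 2D day 4 it read 4.41 and 14.8 FPKM against 16.4, 23.4 and 24.1 (-1.25 ± 0.31, 0.012). Without DENND5A-KD replicate 1, the library at 4.41, this was -0.47 and not called, without replicate 2 it was -2.02, without the 5 set-apart libraries it was -1.15 and not called, and without the former the 5 calls of that comparison became 3. The interaction was 0.27 ± 0.43 (0.891). It ran from -0.51 to 1.40 over the alternatives, so it does not show that the effect was alike on both days. In AVL9-KD, ABCC2 read 2.23 and 2.55 FPKM at day 0 (-0.17 ± 0.30, 0.737) and 27.7 and 14.4 at 2D day 4 (-0.06 ± 0.31, 0.903).

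ABCB4 (ENSCAFG00000001833) read 5.11 and 7.87 FPKM in DENND5A-KD and 10.3 and 5.68 in AVL9-KD at day 0, all above the wild-type range of 1.42 to 2.67. The means were 3.43 and 4.22 times that of wild type, with differences of 1.37 ± 0.22 (limma adjusted p = 0.000495) and 1.60 ± 0.22 (5.28e-05). At 2D day 4 AVL9-KD read 6.83 and 5.04 FPKM against 1.57 to 2.33 (1.24 ± 0.23, 0.00104), while DENND5A-KD read 2.69 and 2.77 (0.36 ± 0.23, 0.381). The DENND5A-KD interaction was -1.0 ± 0.32 (0.124). Its neighbour ABCB1 read 27.9 and 16.1 FPKM in AVL9-KD at day 0 against 10.9 to 11.8 in wild type (0.86 ± 0.18, 0.00338), and 15.1 and 20.8 in DENND5A-KD (0.61 ± 0.18, 0.0584). The latter was called after quantile normalization (0.60, 0.0361), after median-ratio scaling (0.62, 0.0303) and with a term for the 5 set-apart libraries (0.66, 0.0314). The AVL9-KD call rested on replicate 1, without which the value was 0.48 and the 7 calls of that comparison became 3. At 2D day 4 ABCB1 passed the test in neither line (0.28 ± 0.19, 0.305, and 0.01 ± 0.19, 0.992), and the interactions were -0.58 ± 0.27 (0.409) and -0.60 ± 0.27 (0.329).

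ABCC4 at 2D day 4 read 21.8 and 27.2 FPKM in DENND5A-KD and 29.3 and 22.1 in AVL9-KD, all above the 13 to 16.1 of wild type, by 0.72 ± 0.17 (limma adjusted p = 0.00663) and 0.78 ± 0.17 (0.00266). These calls were lost without DENND5A-KD replicate 2 (0.57) and without AVL9-KD replicate 1 (0.59). At day 0 AVL9-KD read 41.9 and 40.6 FPKM against 18.8 to 32.6 (0.69 ± 0.16, 0.00503, lost without AVL9-KD replicate 1 at 0.67), and DENND5A-KD 30.0 and 34.1 (0.34 ± 0.16, 0.308).

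Of the lipid transporters, ABCA8, a lipid transporter next to ABCA5, read 5.00 and 1.27 FPKM in AVL9-KD at day 0 and 1.61 and 1.09 at 2D day 4, against at most 0.269 FPKM in every library that was not AVL9-KD. ABCA8 passed the expression filter through these libraries alone, so no test is given. ABCA13, a large transporter of the same family, read 1.71 and 2.40 FPKM in DENND5A-KD at 2D day 4 against 0.380, 0.381 and 0.574 in wild type, and AVL9-KD held 2.38 in replicate 1 and 0.283 in replicate 4. It too passed the filter through knockdown layers alone. ABCA2 read 1.73 and 2.66 FPKM in DENND5A-KD at 2D day 4 against 5.43 to 7.36 (-1.18 ± 0.19, limma adjusted p = 0.000315) and 1.06 and 1.03 at day 0 against 0.911 to 1.52 (-0.15 ± 0.18, 0.805). In AVL9-KD at 2D day 4 it read 3.1 and 5.40 FPKM, also below wild type, without passing the test (-0.48 ± 0.19, 0.0692). That difference was called after quantile normalization (-0.70, 0.00543), after median-ratio scaling (-0.68, 0.0109) and without AVL9-KD replicate 4 (-0.80, 0.0122). Whether the lines differed from each other was not tested. ABCA3 fell in AVL9-KD at day 0, to 2.50 and 2.18 FPKM (-0.60 ± 0.19, 0.0342), a call lost without either knockdown library (-0.67 without replicate 1, -0.53 without replicate 4) or without day 0 replicate 2 (-0.51) or 4 (-0.55).

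The rest of the AVL9-KD calls were small. ABCB8, an ABC protein of mitochondria, was higher by 0.29 ± 0.10 at 2D day 4 (limma adjusted p = 0.0403). That call was lost without AVL9-KD replicate 1 (0.26), AVL9-KD replicate 4 (0.31) or wild-type replicate 3 (0.23), without the 5 set-apart libraries (0.30), and under both other scalings (0.08 after quantile normalization). ABCC5 was higher by 0.56 ± 0.13 at day 0 (0.00663, lost without AVL9-KD replicate 4 at 0.46).

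The 2 libraries of a knockdown differed from each other for several members. In AVL9-KD, ABCA5 read 0.0785 FPKM in replicate 1 and 1.14 in replicate 4 at day 0, and 1.58 and 8.73 at 2D day 4. SLCO1A2, a bile salt and drug carrier that was at most 0.0277 FPKM in wild type, read 1.24, 0.529 and 0.518 in DENND5A-KD replicate 2 at day 0, 2D day 4 and 2D day 7, and 0.967 and 0.223 in AVL9-KD replicate 4. The replicate 1 libraries of both lines held at most 0.0456 FPKM. SLCO4C1, a kidney carrier of digoxin, read 0.120 to 0.395 FPKM in all 6 DENND5A-KD libraries and at most 0.0425 in the other 23, and ABCC11 read 0.346 and 0.704 in AVL9-KD at 2D day 4 and at most 0.124 elsewhere. None of the 3 was tested.

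From 2D day 4 to day 7 of DENND5A-KD, limma called 0 of the 31 genes, against 0.0170% of all tested genes higher and 0.0340% lower, and 0 had an unadjusted p under 0.05. Of the 2 interactions of knockdown and day, the DENND5A-KD one held 1 member, ABCA2 (-1.02 ± 0.26, limma adjusted p = 0.0438), against 1.83% of all tested genes. That call was lost in 13 of 19 alternatives, including leaving out the 5 set-apart libraries (-0.83), DENND5A-KD replicate 1 of 2D day 4 (-0.81) or of day 0 (-1.01), DENND5A-KD replicate 2 of day 0 (-1.04), wild-type 2D day 4 replicate 1 (-0.91), 2 (-1.06) or 3 (-1.10), or day 0 replicate 1 (-0.94), 2 (-1.07) or 3 (-1.02). In AVL9-KD limma called 0 members, against 1.22% of all tested genes, with 3 at an unadjusted p under 0.05.

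**Figure D5:**
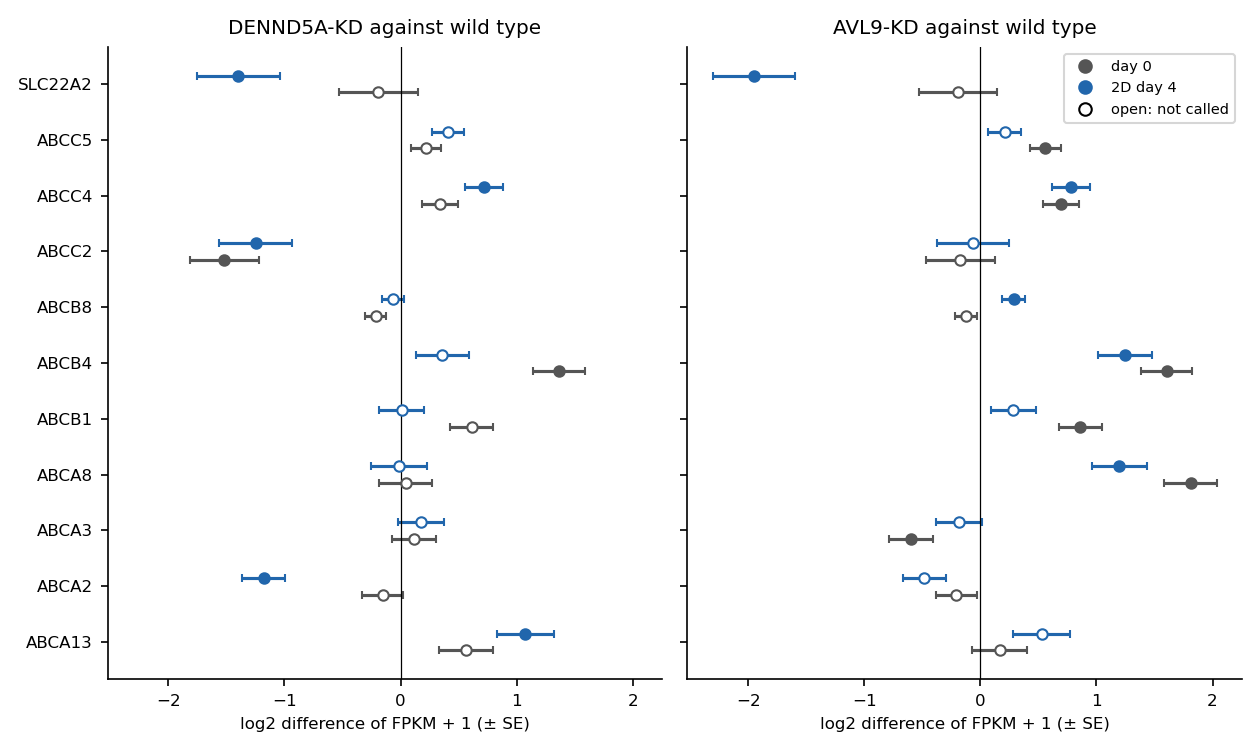
Of the 12 transporter genes called in at least 1 of 4 knockdown comparisons, 11 are plotted as differences of log2(FPKM + 1) from wild type (x axis) with bars of 1 SE, DENND5A-KD on the left and AVL9-KD on the right. Grey is day 0, blue 2D day 4 and open points were not called; ABCA8 and ABCA13 entered through knockdown libraries alone. ABCB4 is to the right in both lines at day 0, and SLC22A2 to the left in both at 2D day 4.

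Some neighbours on the chromosome stood at different levels, and others stood alike. In the RefSeq table of the assembly UU_Cfam_GSD_1.0, used only for neighbourhood, all 68 symbols were found and 33 of them lay within 3 protein-coding genes of another member, in 15 clusters. The cation carriers SLC22A2 and SLC22A3 share 1 cluster, in which SLC22A2 reached 40.7 FPKM and SLC22A3 was listed at 0. SLC22A5 averaged 15.4 FPKM beside SLC22A4 at 0.0457, and ABCC1 3.56 FPKM beside ABCC6, whose highest library held 0.0103. In other clusters all members were listed at 0: SLC47A1 with SLC47A2, ABCG5 with ABCG8, and SLC22A6 with SLC22A8 and SLC22A10. ABCB1 and ABCB4 were both tested: at 2D day 11 ABCB1 was higher than at day 0 while ABCB4 did not pass the test, and at day 0 of AVL9-KD both were higher. Reads shared between near-identical family members could have been split by the counting, and the strand setting of the counting is not given in the sources used here.

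Genes that work with these transporters, from lists that hold no member, were followed as well. The lists were chosen with earlier results of these data known, so the shares of all genes beside them are not a test of the lists. At 3D day 8, 24.7% of all tested genes were higher than at day 0 and 38.0% lower, with a median of -0.13. Of 16 tested regulators of transporter genes, 7 were higher and 4 lower at that time, with a median of 0.10. At 2D day 4, 10 were higher and 3 lower, with a median of 0.37, against 30.3% and 29.6% of all tested genes and a median of 0. HNF4A, a nuclear receptor that drives renal and hepatic transporter genes, read 0.301 to 0.853 FPKM at day 0, 23.1 and 12.2 at 3D day 8 and 12.6 to 26.8 at 2D day 4. It was higher by 3.48 ± 0.48 and 3.52 ± 0.42, with no test given because it stayed under 1 FPKM at day 0. PDZK1, an apical scaffold that binds several SLC22 and ABC proteins, read 0.811 to 4.89 FPKM at day 0, 323 and 230 at 3D day 8 and 140 to 359 at 2D day 4. Its rises were 6.41 ± 0.87 (limma adjusted p = 2.67e-06) and 6.13 ± 0.77 (1e-06). At 2D day 4 both were lower in DENND5A-KD, HNF4A by 2.79 ± 0.51 (0.00114) and PDZK1 by 3.93 ± 0.91 (0.00721), and in AVL9-KD, by 1.79 ± 0.51 (0.0172) and 3.88 ± 0.91 (0.00572). The AVL9-KD replicates were far apart, HNF4A at 0.996 and 13.1 FPKM, the latter within the wild-type range, and PDZK1 at 1.46 and 94.3. Of the transporters, SLC22A2, ABCA2 and ABCA5 were lower in replicate 1 too. ABCC2 (27.7 and 14.4), ABCB1 (29.9 and 24.0), ABCC4 (29.3 and 22.1), ABCB4 and ABCA13 were higher in it. The part of HNF4A and PDZK1 in the levels of the transporters was not tested. ABC genes under other names went apart: the chloride channel CFTR was higher at 3D day 8 (1.74 ± 0.26, 9.05e-06), while ABCE1, a ribosome recycling factor with no transport role, was lower (-0.99 ± 0.12, 5.52e-07), as were ABCF1, ABCF2 and the peptide transporter TAP1 among 6 tested (median -1.02). Of 10 tested carriers of nutrients and drugs outside the chosen families, 1 was higher and 7 lower at 3D day 8 (median -1.09), beside the shares of all genes given above. The lower ones included the lactate carrier SLC16A1 and the amino acid carrier SLC7A5. Of 10 tested drug metabolism and glutathione enzymes, 4 were higher and 0 lower at 3D 24 h (median 0.62), when 0.629% of all tested genes were higher and 0.561% lower (median 0.06). They were led by CYP1A1 (3.85 ± 0.37, 2.91e-06) and included NQO1 (1.69 ± 0.35, 0.0185). At 3D day 8 of that list, 2 were higher and 5 lower (median -0.56).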

How the data were processed

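The authors deposited 1 table of FPKM values per library, for 29 libraries of MDCKII cells. Libraries were strand-specific and made from mRNA, per the labels' protocols. The submitters' processing notes name HISAT2 2.1.0, Cufflinks 2.2.1, canFam3 and CanFam3.1, with no role given. Further scaling is not given in the sources used here. Without counts the absolute depth is unknown, and relative depth was estimated from the spacing of FPKM values below 0.15.

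Groups came from the sample titles. Genes that reached 1 FPKM in 2 or more libraries were tested on log2(FPKM + 1) with limma 3.58.1 in R 4.3.3 (trend option, 1 mean per group, no replicate block), adjusted by Benjamini and Hochberg over all 11774 genes. The procedure was tested on simulated data. Day 14 has 1 library and entered no contrast. Whether the replicate numbers pair the wild-type libraries is not stated. Correlations of same-numbered deviations ran from -0.16 to 0.56, and 19 of 41 pairs were over 0.1, against 14 of 96 pairs of unlike number. In a group of 2 libraries the deviations mirror each other, so values recur between pairs, also with reversed sign. The counted pairs are therefore not independent. The first replicates of day 0, 3D days 3 and 8 and 2D day 4, all set apart earlier, correlated at 0.40 to 0.56. The main fit leaves such structure out, and the replicate block estimated a shared correlation of 0.20. In DENND5A-KD and AVL9-KD a shared number was taken to name the same line, which the labels do not state. The main fit leaves this pairing out, also in the day 7 comparison and the interactions. Deviations of the same number correlated at 0.36 in AVL9-KD and at 0.01 to 0.097 in DENND5A-KD. All these groups hold 2 libraries, which mirror each other.

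Genes are named by a written rule: drug carriers of interest always, tested members with the smallest adjusted p (up to 8 in each direction of a contrast), the 10 with the highest group mean, and up to 4 per other list. SLC22A11, SLC22A17, SLCO1A2 and ABCC11 were singled out after their values were seen. The members and lists were chosen with earlier results of these data known. Alternatives covered scaling, pseudocount, filter, blocking, fits on the contrast's groups alone, the 5 libraries and leaving out each library. Tables were handled with Python 3.11.15 and pandas 2.3.3. Of the 24223 genes, 5715 have no symbol in the files and could not match a name. No sequence was used, and gene coordinates of UU_Cfam_GSD_1.0 served only to find neighbours on the chromosome. The values of some member genes are not reported here; counts over the members include them.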

Additional observations from a re-analysis of the deposited data

Results flagged for a closer look

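ABCB10, the mitochondrial transporter, read 14.6 FPKM in day 0 replicate 1 against 11.1 to 11.5 in the other 3 day 0 libraries. Its gap to the nearest was 0.886 of the whole range, above Dixon's 95% critical value. It was 1 of 31 genes examined in this way, of which chance marks about 1 in 20, and this library is 1 of the 5 set apart earlier, at a relative depth of 0.463.

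The effect of DENND5A-KD on ABCA2 differed between day 0 and 2D day 4 by -1.02 on the log2(FPKM + 1) scale (limma interaction, adjusted p = 0.0438), with every DENND5A-KD library of 2D day 4 below the wild-type ones. The call was lost in 13 of 19 alternatives, including without the 5 libraries set apart earlier (-0.83) and without DENND5A-KD replicate 1 (-1.01) or 2 (-1.04) of day 0.

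The single day 14 cyst library entered no comparison. It held the highest value of all 29 libraries for 4 members. ABCB1 read 47.9 FPKM (next highest 37.2, at 2D day 11), SLC22A2 40.7 FPKM (next 32.5, at 3D day 8), SLC22A18 9.39 FPKM (next 7.92, at 3D day 8) and SLC22A11 2.42 FPKM (next 0.906, at 3D day 5).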

How the results depend on the processing

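Of 149 calls of transporter genes, 0 reversed under any alternative, 93 held under every alternative other than fitting the contrast's groups alone, and 149 held with the replicate block. The 149 include the calls of ABCA8, ABCA13, ABCA1 and SLC22A2 that are given above as values with no test. Fits on the groups of the contrast alone, with fewer libraries, held 116 of the 149 and lost 33. They called 0 at 3D 24 h, in DENND5A-KD at 2D day 4, in AVL9-KD at 2D day 4 and in the DENND5A-KD interaction, and 1 in AVL9-KD at day 0. The replicate block gave 5 at 3D 24 h, with ABCC4 (adjusted p = 0.0347) and SLC22A18 (0.0332) added, 2 for 2D day 11 against day 4, ABCB1 (0.61, 0.0268) and SLCO3A1 (0.53, 0.0286), and 1 in the AVL9-KD interaction. It also called ABCB1 (0.40, 0.0412) at 3D day 8 and ABCA13 (0.47, 0.0316) at 2D day 4, and changed no other count by over 1.5 times. The batch term gave 1 for 2D day 11 against day 4. The pseudocount of 0.1 moved differences of genes under a few FPKM by over 1.5 times. Median-ratio scaling gave 5 at 3D 24 h, 4 in DENND5A-KD at day 0 and 2 in the DENND5A-KD interaction, as quantile normalization did in the latter. The pseudocount of 0.1 gave 4 in DENND5A-KD at day 0 and 0 in its interaction. Without the expression filter, DENND5A-KD at 2D day 4 had 8, its interaction 0 and the AVL9-KD interaction 1. Without the 5 libraries the DENND5A-KD interaction had 0. Leaving out 1 library at a time gave 0 to 4 at 3D 24 h, 1 to 3 in DENND5A-KD at day 0, 3 to 5 at 2D day 4, 0 to 1 in its interaction, 3 to 8 in AVL9-KD at day 0 and 0 to 3 in the AVL9-KD interaction. With 1 library left in a group, it is assumed to vary like the other groups. The causes were not tested. Precision is limited by 1 to 4 libraries per group and by genes under 1 FPKM.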
